A study of Mus musculus with 45 samples.

Results

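The 200 rows described here are the rows of the count tables that differed most between mice of the same group after long Western diet feeding. Each row is one gene of the exon count table, and a row's level x was log2(CPM + 1), with CPM as counts scaled to the total of the library. Rows with a mean x of 4 or more at both 16 and 24 weeks of diet were kept, which were 9578 of 23999 rows. Within each of these groups the SD of x over its 4 libraries was taken, and the 200 rows with the highest value of the smaller of these 2 SDs were chosen. They are numbered from 1, the most variable, to 200. Their spread at 16 and 24 weeks is what chose them, so values from these groups are given as a description and without a test.

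The libraries were made from hepatic stellate cells (HSCs) of male mice, with the strain given as C57BL6/J in the labels and as C57BL/6JBomTac in the study's methods. In WD, mice were fed Western diet with fructose in the drinking water for 12, 16 or 24 weeks, or chow with plain water, and all reached the same age at the end, with 4 libraries per group. In CCl4, mice received the hepatotoxic solvent in oil by gavage for 1, 4 or 8 weeks, with 3, 4 and 3 libraries, or vehicle, with 4 libraries. In IVT, HSCs of untreated mice were kept in suspension for 2 hours (day 0) or cultured on plastic in medium with serum for 1, 4, 8 or 12 days, with 3 libraries per time point. All cells were isolated by density gradient and sorted live by their retinoid autofluorescence, so cells that had lost their retinoid droplets were not collected. The study's methods call the cultures technical triplicates and the sequenced RNA biological replicates, so p-values and SDs in IVT may measure only the spread between wells. Nothing in the labels says which mice or litters the replicate letters A to D stand for.

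HSCs are the vitamin A-storing pericytes of the liver sinusoid. On injury they lose their retinoid droplets and turn into contractile, matrix-producing myofibroblasts, a step called activation that drives liver fibrosis. Western diet leads to fatty liver and inflammation before fibrosis, CCl4 kills hepatocytes around the central vein and leads to fibrosis sooner, and culture on plastic activates HSCs without a liver around them.

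No gene is named here, because the counts did not follow the identifiers listed beside them. Of 82 rows listed at ribosomal protein genes, which every cell uses, 28.0% had a mean count below 1, against 32.4% of all rows, and their median mean count was 37.9, against 31.6 over all rows. The order of the rows was the same in all 3 tables, with a rank correlation across rows of 0.968 between chow and vehicle and of 0.933 between chow and IVT day 0, so a row was taken as the same unnamed gene throughout. For the same reason the labelled cell type could not be checked against its markers, and markers of other liver cells could not be read. Library totals ranged from 2318311 to 7576527 counts. A count of 3, taken as the floor, was worth between 0.396 and 1.29 CPM, which covers counting error only.

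The SD of the most variable row, row 1, was 1.67 at 16 weeks and 1.60 at 24 weeks on the x scale. The last row inside, row 200, had SDs of 1.37 and 0.997, and the first row outside had 0.9969 and 0.9998. The median SD of the 200 rows was 1.21 at 16 weeks and 1.13 at 24 weeks, against 0.269 and 0.284 over the 9578 rows they were chosen from. The SD that counting alone would give the 200 rows had a median of 0.104 at 16 weeks and 0.0905 at 24 weeks, set here beside a spread that was chosen to be high.

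**Figure D1:**
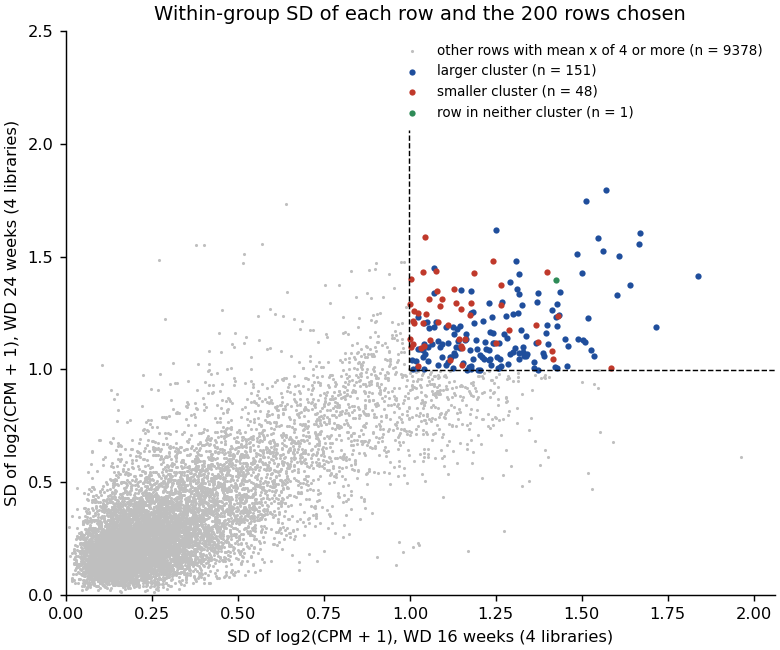
Each point is a row with a mean x of 4 or more at both time points, placed by its SD of log2(CPM + 1) over the 4 libraries of WD 16 weeks (x axis) and of WD 24 weeks (y axis). The 200 chosen rows (coloured by cluster) lie above the dashed lines at 0.997 in both directions, and the other rows (grey) lie below at least one of them.

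The 200 rows split into 2 clusters that moved in opposite directions from mouse to mouse. Rows were clustered by the correlation of their deviations from the 16- and 24-week group means over these 8 libraries, which gave a larger cluster of 151 rows and a smaller cluster of 48 rows, with 1 row, row 12, in neither. In the 16-week replicates A to D, the mean x of the larger cluster was 6.60, 6.93, 4.17 and 5.63, and that of the smaller cluster was 4.44, 4.53, 6.51 and 6.36. In the 24-week replicates A to D it was 7.16, 7.32, 5.89 and 4.87 for the larger cluster and 4.25, 4.15, 6.05 and 6.49 for the smaller cluster. Replicates A and B were thus high for the larger cluster and low for the smaller one at both times, and replicates C and D were the reverse. The lowest library of the larger cluster was C at 16 weeks, in 149 of 151 rows, and D at 24 weeks, in 150 of 151 rows.

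The split between A and B on one side and C and D on the other was complete at 24 weeks in both clusters and had exceptions at 16 weeks. At 24 weeks, all 151 rows of the larger cluster were above their group mean in A and in B and below it in C and in D, and all 48 rows of the smaller cluster were the reverse. At 16 weeks, the 48 rows of the smaller cluster again showed no exception, and the larger cluster was above its mean in A in 151 rows, in B in 150 rows, in C in 0 rows and in D in 27 rows. The mean pairwise correlation of deviations over these 8 libraries was 0.964 within the larger cluster, 0.966 within the smaller cluster and -0.898 between them. Between the 9578 rows the choice was made from it was 0.024, a mean over rows that go either way. These correlations describe libraries that chose the rows.

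As a share of all counts, the larger cluster took 2.07, 2.69, 0.378 and 1.09% of the 16-week libraries A to D and 3.11, 3.39, 1.31 and 0.639% of the 24-week libraries. The smaller cluster took 0.123, 0.132, 0.526 and 0.47% at 16 weeks and 0.105, 0.0974, 0.374 and 0.506% at 24 weeks. The larger cluster therefore fell from 2.69% in replicate B to 0.378% in replicate C among mice of the 16-week group. In bulk libraries of sorted cells, fewer cells of a type and less RNA per cell cannot be told apart. The study speculates that hepatocyte mRNA may have been carried over into libraries of diet-fed mice. It also holds traces of macrophage mRNA to be likely in its HSC preparations. Whether either bears on these rows was not tested.

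The same axis ran through the 9578 rows the choice was made from. Over all 9578 rows, the deviations of 16-week libraries A and B correlated with those of 24-week libraries A and B at between 0.533 and 0.782, and those of C and D with C and D at between 0.376 and 0.781, while every pair across these sides was negative, from -0.801 to -0.424. The first component held 92.8% of the within-group variation of the 200 rows at 16 weeks and 96.8% at 24 weeks, and 80.1% and 84.8% of that of all rows with a mean x of 4 or more. Depth moved with it: the 16-week libraries A to D held 4419129, 3563264, 5545026 and 5034793 counts and the 24-week libraries 4308508, 4643716, 4737971 and 6404105, so C and D were the deeper libraries at both times. When every library of the WD table was thinned to 2425443 counts, 168 of the 200 rows were chosen again. The choice also rested on the libraries at the end of the axis: 75 of the 200 rows were chosen again without replicate C of 16 weeks and 80 without replicate D of 24 weeks. Whether the letters mark a shared litter, day or cage at these 2 times was not tested.

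**Figure D2:**
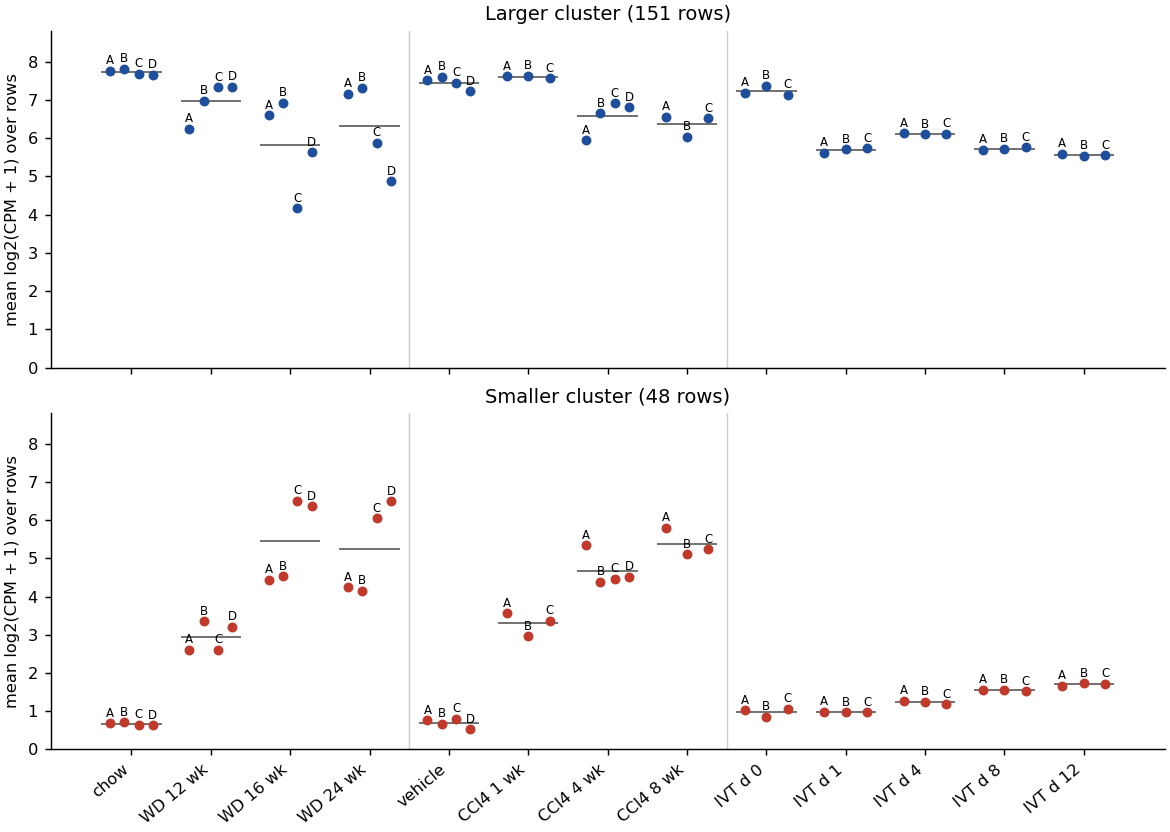
Mean log2(CPM + 1) over the 151 rows of the larger cluster (top) and the 48 rows of the smaller cluster (bottom) in each library, with a point and a letter for each replicate and a grey line at the group mean. The larger cluster is tight in chow (7.66 to 7.82) and wide at WD 16 weeks (4.17 to 6.93) and WD 24 weeks (4.87 to 7.32), and the smaller cluster is below 1 in chow and vehicle and rises under diet and CCl4.

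Row 1 is a member of the larger cluster. It was at 334, 371, 385 and 229 CPM in chow, at 166, 409, 202 and 205 CPM after 12 weeks, at 233, 302, 23.6 and 71.1 CPM after 16 weeks and at 260.4, 285, 75.1 and 26.6 CPM after 24 weeks. At 16 and 24 weeks, replicates A and B were within the range of chow, and C and D were below every chow library. Row 3 also had A and B above C and D at both times. It was at 624, 430.1, 519 and 489 CPM in chow. At 16 weeks it was at 313, 412, 35.2 and 77.1 CPM and at 24 weeks at 621, 521, 175 and 59.8 CPM. Every 16-week library of row 3 lay below every chow library. Its 24-week replicates A and B overlapped the chow libraries, while C and D lay below all of them. Row 2 was at 170.4, 205, 21.3 and 39.5 CPM at 16 weeks and 159.5, 257, 43.9 and 15.6 CPM at 24 weeks, and row 4 was at 117, 153, 14.6 and 33.6 CPM and 295, 203, 63.1 and 25.9 CPM.

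Row 5 was both among the 5 most variable rows and the row closest to the larger cluster, with a mean correlation of 0.981 to its other rows. It was at 344, 308, 292 and 317 CPM in chow, 78.2, 126, 194 and 174 CPM at 12 weeks, 93.5, 136, 10.8 and 43.5 CPM at 16 weeks and 147, 177, 45.6 and 17.6 CPM at 24 weeks. Every diet library was below every chow library, and the lowest was again replicate C at 16 weeks and replicate D at 24 weeks. Row 28, the next closest, was at 194, 198, 163 and 197 CPM in chow, 85.8, 99.1, 10.8 and 37.7 CPM at 16 weeks and 146, 153, 49.8 and 24.4 CPM at 24 weeks. Row 172 was at 187, 207, 198 and 214 CPM in chow, 98.9, 121, 18.9 and 50.2 CPM at 16 weeks and 196, 197, 82.7 and 45.8 CPM at 24 weeks. In both rows all 4 libraries of 16 weeks lay below chow, and at 24 weeks replicates A and B of row 172 were within the range of chow.

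The rows closest to the smaller cluster, rows 160, 60 and 176, were nearly silent in chow. Row 160 was at 0.555, 0.162, 1.02 and 0.729 CPM in chow, 6.45, 8.66, 3.90 and 9.16 CPM at 12 weeks, 21.5, 20.8, 82.2 and 67.9 CPM at 16 weeks and 20.2, 18.3, 66.3 and 81.3 CPM at 24 weeks. Row 60 was at 0.37, 0.162, 0.766 and 0 CPM in chow, 23.5, 22.2, 98.7 and 88.8 CPM at 16 weeks and 19.5, 20.5, 83.8 and 105 CPM at 24 weeks. Row 176 was at 1.85, 0.973, 0 and 0.547 CPM in chow, 47.8, 46.3, 162 and 160.5 CPM at 16 weeks and 41.1, 36.6, 148 and 186 CPM at 24 weeks. All 3 rows were above every chow library in all 8 libraries, and replicates C and D lay above A and B at both times. Row 12, in neither cluster, did not follow this order: it was at 2.41, 0, 0.511 and 1.27 CPM in chow, 22.5, 61.0, 42.9 and 77.9 CPM at 12 weeks, 26.5, 54.4, 6.13 and 7.15 CPM at 16 weeks and 26.9, 10.6, 43.5 and 117 CPM at 24 weeks. Replicates A and B were the higher ones of row 12 at 16 weeks, and C and D at 24 weeks.

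Over the course of the diet, the larger cluster went down from its chow level and the smaller cluster came up from near 0. In chow the mean x of the larger cluster was 7.73 ± 0.07 (SD, n = 4), with all libraries between 7.66 and 7.82. It was 6.98 ± 0.52 at 12 weeks, 5.83 ± 1.24 at 16 weeks and 6.31 ± 1.15 at 24 weeks (SD, n = 4 each). The smaller cluster was at 0.67 ± 0.04 in chow, 2.95 ± 0.39 at 12 weeks, 5.46 ± 1.13 at 16 weeks and 5.23 ± 1.21 at 24 weeks (SD, n = 4 each). In chow, 40 of its 48 rows had a mean x under 1 and 3 rows had no count at all. At 16 weeks, 141 rows of the larger cluster were at least 1 log2 unit below chow and all 48 rows of the smaller cluster at least 1 above it. The corresponding counts at 24 weeks were 122 and 48. Of all rows with a mean x of 4 or more in either group, 1456 of 10408 were at least 1 below chow and 1891 at least 1 above it at 16 weeks, and 1006 and 1719 of 10356 at 24 weeks. The rule asked for a mean x of 4 or more at these times, so rows of the smaller cluster that are silent in chow had to be higher there, and no test is given.

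The SDs that chose the rows came from neither the 12-week nor the chow libraries. The limit on level at 16 and 24 weeks, however, kept rows of the smaller cluster that are near 0 in chow only if they were high later in the diet, so a higher level at 12 weeks is given as a description of these rows and not as independent of their choice. In edgeR's quasi-likelihood test with Benjamini-Hochberg adjustment over all 13510 rows tested, rows with an FDR no higher than 0.05 and an average log2CPM above 2 were called. Of all rows tested, 18.5% were called higher and 6.61% lower at 12 weeks. Of the 48 rows of the smaller cluster, 21 were called higher, with a median log2FC over the cluster of 4.26, or 4.13 with the 3 rows without a chow count set at their lower bound. Row 12 was also called higher (log2FC 5.60 ± 1.00 (SE), FDR = 0.000484), which made 22 of the 200 rows. The count depended on the limit on level. The average log2CPM was first taken as the mean of the 2 group means, which called 5 of the 200 rows, all of them higher, and edgeR's average over the libraries was adopted after those calls had been seen. By FDR alone 44 rows were called. The shares of all rows given above belong to the rule that called 22 rows, not to these other counts. The median log2FC over all rows tested was 0.02.

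None of the 151 rows of the larger cluster was called at 12 weeks in this fit, although 146 of them had a log2FC below 0 and their median was -0.71. At an unadjusted p under 0.05, 6 of them were lower, and DESeq2 called 3 of the 200 rows lower. The shares of all rows under these rules are not given, so these counts are not set against the whole table. The fit held all 16 WD libraries, so its estimate of the spread included the 16- and 24-week libraries that were chosen for a high SD in these rows, and the median SE of the 200 rows was 0.57, against 0.25 over all rows. With only the 12-week and chow libraries in the fit, a choice listed among the alternatives, the median SE of the rows was 0.24 and 87 of the 151 rows of the larger cluster were called lower, with 18.8% of all rows called higher and 12.9% lower. In that fit 41 of the 48 rows of the smaller cluster passed the filter on low counts and 23 of them were called higher, together with row 12. The cluster medians in it were -0.73 over 151 rows and 4.15 over these 41.

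The largest rises at 12 weeks were small in absolute level. Row 163 had 1 count in the 4 chow libraries together and was at 11.4, 31.3, 17.5 and 23.6 CPM at 12 weeks, a ratio of 402 with a 95% counting interval from 71.7 to 15900. That count was in replicate A, and without it the row was at least 99.4-fold higher against a floor of 3 counts over the other chow libraries. It continued to 91.0, 87.6, 342 and 270.5 CPM at 16 weeks and 55.9, 59.9, 236 and 289 CPM at 24 weeks. Row 27 was at 0.555, 0, 0 and 0.182 CPM in chow and 4.80, 20.6, 8.32 and 21.0 CPM at 12 weeks (log2FC 5.99 ± 1.19 (SE), FDR = 0.00114 in edgeR). Row 81 was at 0.185, 0.486, 0 and 0 CPM in chow and 9.59, 13.6, 8.32 and 9.66 CPM at 12 weeks (log2FC 5.62 ± 0.98 (SE), FDR = 0.00037 in edgeR). In all 3 rows every 12-week library was above every chow library. The log2FC of row 27 was 7.25 without chow replicate A, and that of row 81 was 6.80 without chow replicate B. None of the 3 was called with the limit on the mean of the group means.

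Within the 12-week group the larger cluster already varied as a block. Its mean x was 6.24, 6.98, 7.33 and 7.35 in replicates A to D, and A was the lowest library in 147 of 151 rows. The mean pairwise correlation of deviations was 0.847 within the larger cluster over these 4 libraries, against 0.026 over all rows with a mean x of 4 or more. It was 0.568 within the smaller cluster and 0.261 between the clusters, so here they did not move against each other. The first component held 76.0% of the variation of the 200 rows at 12 weeks and 76.8% of that of all rows with a mean x of 4 or more, and replicate A was at its end in both, so the share was no higher in the chosen rows. The smaller cluster was at 2.61, 3.35, 2.61 and 3.21. In chow the correlations were 0.105 within the larger cluster, -0.004 within the smaller and 0.043 between them. Over all rows with a mean x of 4 or more in chow it was 0.024. Over 4 libraries such a correlation has few degrees of freedom, and the points of one library share its depth and composition. Replicate B of 12 weeks held 2425443 counts, against at least 5892116 in the other libraries of its group.

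**Figure D3:**
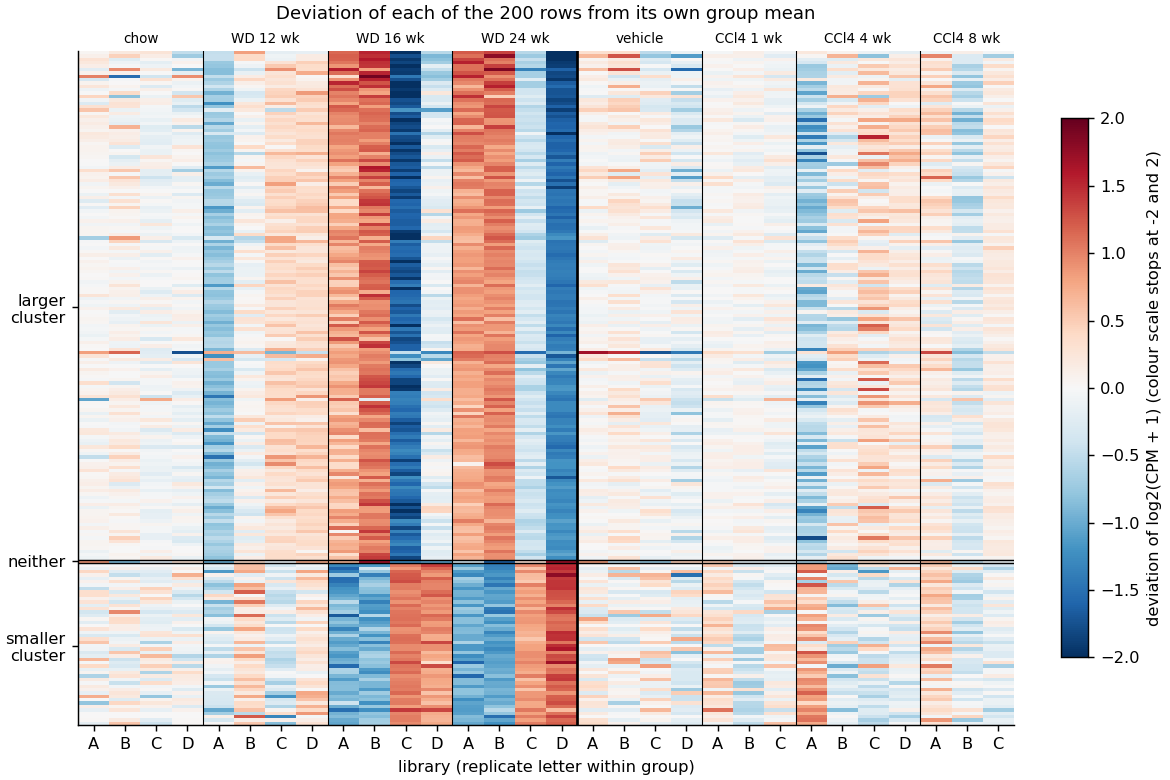
Deviation of each of the 200 rows (y axis, grouped by cluster) from its own group mean of log2(CPM + 1) in each library (x axis, by group and replicate letter), from blue (below) to red (above), with the colour scale ending at -2 and 2. The strong opposed bands are at WD 16 and 24 weeks, which chose the rows, with weaker bands at WD 12 weeks replicate A and CCl4 4 weeks replicate A (IVT libraries are not drawn).

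CCl4 moved the smaller cluster up from its first week and the larger cluster down by 4 and 8 weeks. The mean x of the smaller cluster was 0.77, 0.68, 0.80 and 0.53 in the vehicle libraries, 3.56, 2.96 and 3.37 at 1 week, 5.34, 4.38, 4.47 and 4.52 at 4 weeks and 5.80, 5.11 and 5.23 at 8 weeks. Each treated library was above each vehicle library. The larger cluster was at 7.52, 7.61, 7.45 and 7.24 in vehicle, 7.63, 7.64 and 7.57 at 1 week, 5.95, 6.66, 6.91 and 6.82 at 4 weeks and 6.56, 6.04 and 6.52 at 8 weeks. It overlapped vehicle at 1 week and lay below it at 4 and 8 weeks.

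After 1 week of CCl4, edgeR's quasi-likelihood test called 32 of the 48 rows of the smaller cluster higher, with a median log2FC of 4.40, or 4.30 with the 4 rows without a vehicle count at their lower bound. Of the larger cluster, 29 rows were called higher and 15 lower, with a median of 0.05. Of all 13513 rows tested, 13.8% were higher and 9.83% lower. Without replicate A of 1 week the calls over the 200 rows went from 76 to 46. At 4 weeks, 42 rows of the smaller cluster were higher (median 6.20, or 5.96 with bounds), and 18 rows of the larger cluster were higher and 99 lower (median -0.89), with 23.1% of all rows higher and 23.3% lower. At 8 weeks, 44 rows of the smaller cluster were higher (median 6.83, or 6.69 with bounds), and 12 rows of the larger cluster were higher and 112 lower (median -1.21), with 21.8% of all rows higher and 24.0% lower. The 3 comparisons share the vehicle libraries, and rows near 0 in vehicle could hardly be called lower.

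The rows with the largest rises after 8 weeks of CCl4 came from the smaller cluster. Row 91 had no count in the 4 vehicle libraries and was at 45.4, 20.3 and 23.7 CPM at 1 week, 59.5, 25.9, 23.4 and 22.8 CPM at 4 weeks and 60.3, 36.7 and 52.2 CPM at 8 weeks. Against a floor of 3 counts over the vehicle group, it was at least 290-fold higher at 8 weeks. Row 11 also had no vehicle count and was at 45.5, 28.9 and 25.1 CPM at 8 weeks, at least 195-fold higher, and was not called with the limit on the mean of the group means. Row 163, the row with the largest rise under the diet, had 2 vehicle counts and was at 116, 125 and 119.8 CPM at 8 weeks, a ratio of 975 with a 95% counting interval from 269 to 8060. Both counts were in replicate A, and without it the row was at least 468-fold higher. The 3 libraries of row 163 at 8 weeks lay close together, where the 4 libraries of 16 weeks of diet ran from 87.6 to 342 CPM.

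The largest falls came from the larger cluster. Row 120 was at 584, 626, 744 and 538 CPM in vehicle, 165, 134 and 184 CPM at 1 week, 4.41, 11.2, 25.3 and 10.8 CPM at 4 weeks and 5.32, 3.02 and 5.78 CPM at 8 weeks, a log2FC of -7.12 ± 0.45 (SE) at 8 weeks (FDR = 4.49e-09 in edgeR). Under the diet, the same row was at 693, 590.0, 525 and 763 CPM in chow, 176, 296, 385 and 388 CPM at 12 weeks, 138, 134, 18.2 and 84.2 CPM at 16 weeks and 163, 219, 59.3 and 47.6 CPM at 24 weeks. Its lowest diet library, replicate C of 16 weeks, was therefore still above 3 of the 4 libraries of CCl4 4 weeks and all 3 of 8 weeks. Row 10 fell from 186, 200.1, 169 and 179.8 CPM in vehicle to 6.01, 2.59 and 7.28 CPM at 8 weeks (log2FC -5.18 ± 0.31 (SE), FDR = 2.25e-09 in edgeR). Row 45 fell from 46.2, 57.2, 28.7 and 14.6 CPM to 2.75, 0 and 0.251 CPM (log2FC -4.93 ± 0.60 (SE), FDR = 5.67e-06 in edgeR), and its log2FC was -7.75 without replicate A of 8 weeks. Rows were named here only if their 8-week and vehicle libraries did not overlap. At 1 week row 45 was at 43.6, 29.0 and 28.2 CPM, within the range of vehicle, while rows 120 and 10 already lay below it.

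Rows called under both in vivo treatments mostly had the same sign, in comparisons that share no control. Of the 22 rows called higher after 12 weeks of diet, 21 (95.5%) were also called higher after 8 weeks of CCl4, which was 37.5% of the 56 rows higher there. Over the whole table, 1038 of the 2505 rows higher under diet (41.4%) were higher under CCl4, or 35.3% of the 2944 rows higher there. Of the 87 rows called lower in the fit of 12 weeks and chow alone, 74 (85.1%) were also lower after 8 weeks of CCl4, or 66.1% of the 112 rows lower there. Over the whole table these shares were 73.8% of 1667 rows and 37.9% of 3246 rows. Whether the chosen rows differ from the whole table in these shares was not tested. The size of the effects was compared in a fit over all 30 WD and CCl4 libraries, as the 12-week diet effect minus the 8-week CCl4 effect. The difference was called in 24 of the 200 rows, 13 with a positive and 11 with a negative difference, where 11.1% of all 14120 rows were positive and 7.49% negative. This fit also took its spread from the 16- and 24-week libraries that chose the rows, with a median SE of 0.69 in the 200 rows against 0.36 over all rows. With only the 4 groups compared in the fit, the difference was called in 88 of the 200 rows, 53 positive and 35 negative, where 14.1% of all rows were positive and 9.09% negative. Diet and CCl4 mice were separate experiments with a control group each, and the length of treatment differed.

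In 12 rows of the larger cluster the difference was positive, with the diet effect closer to 0. It was largest in row 120 (6.07 ± 0.81 (SE), FDR = 1.49e-05 in edgeR), with a log2FC of -1.02 under diet and -7.12 under CCl4. For row 2 the effects were -0.25 under diet and -4.18 under CCl4. In 5 rows of the larger cluster the difference was negative, among them row 54, at -0.51 under diet and 1.94 under CCl4. In 6 rows of the smaller cluster the difference was negative, among them row 160 (3.57 under diet against 7.24 under CCl4) and row 176 (3.84 against 7.62). In 1 of these 6, row 156, named after its values were seen, the diet effect was below 0 (-0.29 against 2.69). The log2FC of row 12 was 5.60 under diet and 0.46 ± 0.71 (SE) under CCl4, a difference of 5.05 ± 1.38 (SE, FDR = 0.0103 in edgeR).

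**Figure D4:**
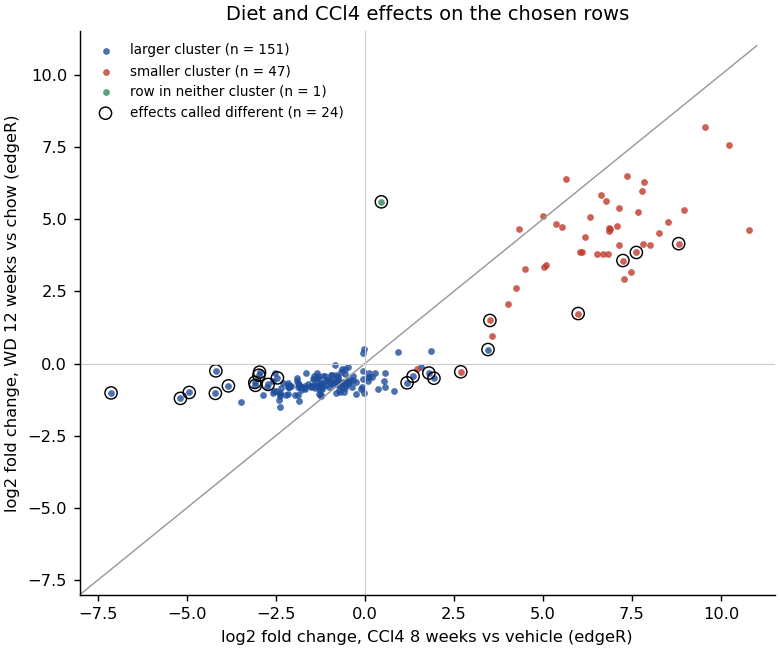
Log2 fold change of each chosen row in edgeR after 8 weeks of CCl4 against vehicle (x axis) and after 12 weeks of diet against chow (y axis), with the line of equal effects in grey. The larger cluster (blue) spreads from -7.12 to 3.46 along the CCl4 axis within a narrow band of diet effects, the smaller cluster (red) is at or below the line of equal effects in most rows, and the 24 circled rows had effects called different.

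At 4 weeks of CCl4 the clusters moved against each other, and at 8 weeks they did so only in replicate C. Over the 7 libraries of 4 and 8 weeks, the mean pairwise correlation of deviations was 0.575 within the larger cluster. It was 0.577 within the smaller and -0.311 between them, against 0.010 over rows with a mean x of 4 or more. Over vehicle and 1 week, also 7 libraries, it was 0.184, 0.268 and 0.048, against 0.026. At 4 weeks, replicate A was the lowest library in 130 of the 151 rows of the larger cluster and the highest in 40 of the 48 rows of the smaller one. The larger cluster took 1.89, 3.20, 3.09 and 3.13% of the counts of the 4-week libraries A to D, and the smaller cluster 0.267, 0.152, 0.141 and 0.155%. Replicate A thus stood apart from the other libraries in both shares. Its total of 3627173 counts was the lowest of the 4, and its part in the result was not tested. The mean deviation from the group mean was below 0 for the larger and above 0 for the smaller cluster in replicate A (-0.63 and 0.66), and the reverse in B, C and D. At 8 weeks, replicate A was most often the highest library in both clusters, in 72 of 151 and 40 of 48 rows. Replicate B was most often the lowest, in 125 and 29 rows. The mean deviations of the larger and the smaller cluster were 0.18 and 0.42 in A and -0.33 and -0.27 in B. In C they were 0.15 and -0.15. The first component held 78.9% of the variation of the 200 rows at 4 weeks and 80.5% at 8 weeks, against 69.5% and 84.9% over all rows with a mean x of 4 or more.

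In culture the larger cluster fell within 1 day and the smaller cluster stayed low as a whole. The mean x of the larger cluster was 7.20, 7.37 and 7.14 at day 0 and 5.63, 5.71 and 5.74 at day 1, then 6.13, 6.10 and 6.11 at day 4, 5.70, 5.73 and 5.76 at day 8 and 5.59, 5.54 and 5.55 at day 12. The smaller cluster was at 1.03, 0.85 and 1.06 at day 0 and 1.67, 1.73 and 1.72 at day 12, and 27 of its 48 rows still had a mean x under 1 at day 12. The filter on low counts kept 24 rows of the smaller cluster in IVT, so calls there cover only these.

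At day 1, edgeR's quasi-likelihood test called 127 of 151 rows of the larger cluster lower and 11 higher (median log2FC -1.65), with 33.1% of all 13655 rows lower and 34.6% higher. In the smaller cluster 3 rows were higher and 6 lower. At day 12, 116 rows of the larger cluster were lower and 24 higher (median -1.72), with 34.2% of all rows lower and 38.5% higher, and in the smaller cluster 10 rows were higher and 5 lower. Both comparisons share the day 0 libraries. Scaling by library totals in place of TMM factors moved the median log2FC of all rows from 0 to 0.31 at day 1, from 0.09 to 0.40 at day 12, from 0.01 to 0.16 at 4 weeks of CCl4 and from -0.01 to 0.14 at 8 weeks. With library totals, the rows called over the 200 were 24 higher and 124 lower at day 1, where the whole table had 6130 higher and 3353 lower, against 4719 and 4524 with TMM. At day 12 they were 43 higher and 115 lower, with 6489 and 3501 in the whole table, against 5252 and 4676. At 4 weeks of CCl4 they were 62 higher and 92 lower, with 3992 and 2326 in the whole table, against 3127 and 3155. At 8 weeks they were 58 higher and 102 lower, with 3615 and 2432 in the whole table, against 2944 and 3246.

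The 3 largest falls at day 12 were in rows of the larger cluster. Row 164 was at 523, 482 and 663 CPM at day 0, 35.6, 30.3 and 32.3 CPM at day 1, 10.5, 8.39 and 8.21 CPM at day 4, 0.892, 2.40 and 2.11 CPM at day 8 and 0.139, 0.427 and 0.928 CPM at day 12 (log2FC -10.37 ± 0.24 (SE), FDR = 2e-16 in edgeR, and -11.14 without replicate C of day 12), and went from 473 to 62.0 CPM on average between vehicle and 8 weeks of CCl4. Row 4 fell from 75.5, 163 and 80.7 CPM at day 0 to 0.139, 0.142 and 0 CPM at day 12 (FDR = 2.89e-12 in edgeR), where 2 counts give a ratio of day 0 to day 12 of 1210 with a 95% counting interval from 333 to 9970, and from 197, 215, 137 and 154 CPM in vehicle to 119.8, 78.1 and 91.7 CPM at 8 weeks of CCl4 (FDR = 0.000284). Row 54 fell from 76.3, 121 and 44.4 CPM to 0.139, 0 and 0.398 CPM (log2FC -8.96 ± 0.54 (SE), FDR = 6.54e-11 in edgeR, and -10.12 without replicate C of day 12), while it rose under CCl4 from 118, 131, 111 and 100.3 CPM in vehicle to 530.2, 580.2 and 452 CPM at 1 week and 488, 434 and 539 CPM at 8 weeks. It had 4 counts at day 12, which gives a ratio of day 0 to day 12 of 465 with a 95% counting interval from 181 to 1710. Row 54 therefore changed in opposite directions under CCl4 and in culture. Under the diet its mean x was 7.42 in chow, 6.83 at 12 weeks, 5.65 at 16 weeks and 5.87 at 24 weeks, and the row was not called at 12 weeks (log2FC -0.51).

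The 3 largest rises at day 12 were all rows of the smaller cluster. Row 53 was at 0.2, 0.372 and 0.562 CPM at day 0, 168, 161 and 173 CPM at day 4, 313, 320.0 and 305 CPM at day 8 and 202, 239 and 236 CPM at day 12 (log2FC 8.92 ± 0.18 (SE), FDR = 3.48e-17 in edgeR). Row 157 had 3 counts over the day 0 libraries and was already at 82.0, 91.5 and 91.9 CPM at day 1 and at 122, 124 and 127 CPM at day 12, a ratio of 578 with a 95% counting interval from 198 to 2810, or of 1110 with an interval from 199 to 44000 without replicate A of day 0. Row 141 had 1 count at day 0 and was at 27.7, 32.6 and 33.1 CPM at day 12, a ratio of 434 with an interval from 77.6 to 17200, and without replicate A of day 0, which held that count, it was at least 92.8-fold higher. Row 141 was not called with the limit on the mean of the group means. These 3 rows were also called higher after 12 weeks of diet and after 8 weeks of CCl4. Rows 163, 160 and 176, called higher after 12 weeks of diet and 8 weeks of CCl4, stayed at or under 1.13 CPM in every IVT library, as did row 60, called higher after 8 weeks of CCl4. After 12 weeks of diet row 60 had a log2FC of 4.10 ± 0.99 (SE) and an FDR of 0.00516 in edgeR, and it was not called only because its average log2CPM was below the limit.

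Taking 8 weeks of CCl4 and day 12 of culture together, 90 rows of the larger cluster were called lower in both, which was 80.4% of the 112 rows lower under CCl4 and 73.8% of the 122 rows lower in culture. Over the whole table, 2009 rows were lower in both, which was 61.9% of the 3246 rows lower under CCl4 and 43.0% of the 4676 rows lower in culture. In 17 rows of the larger cluster the call was lower under CCl4 and higher in culture, in 11 rows it was the reverse, and in 1 row it was higher in both. Over the whole table, 672 of the 3246 rows lower under CCl4 (20.7%) were higher in culture and 468 of the 2944 rows higher under CCl4 (15.9%) were lower in culture. Of the 44 rows of the smaller cluster called higher under CCl4, 10 were higher in culture, 5 lower, 8 tested without a call and 21 not tested because of low counts. Of the 2944 rows of the whole table called higher under CCl4, 52.4% were higher and 15.9% lower in culture.

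The spread that chose the rows was only partly found in the other groups. In each group the SD of x was ranked over all rows with a mean x of 4 or more there, of which 10.0% lie above the 90th percentile. Of the chosen rows with that level, 75 of 179 (41.9%) were above the 90th percentile at CCl4 4 weeks, which was the highest share. Without replicate A of that group the share was 19%. It was 19.9% in vehicle (30 of 151), 18.4% at WD 12 weeks (29 of 158), 15.9% at CCl4 8 weeks (29 of 182) and 12.7% at CCl4 1 week (21 of 166), and 11.8% in chow (18 of 152), close to the share of all rows. In IVT it was 14.4% at day 0 (22 of 153), 12.6% at day 1 (15 of 119), 9.3% at day 4 (12 of 129), 11.9% at day 8 (14 of 118) and 15.2% at day 12 (17 of 112).

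At CCl4 1 week, 14 of the 15 rows of the smaller cluster with that level were above the 90th percentile and 7 of 151 of the larger cluster (4.6%). The shares of the larger and the smaller cluster were 17.9% and 16.7% at WD 12 weeks, 39.0% and 52.6% at CCl4 4 weeks and 12.8% and 26.8% at CCl4 8 weeks. Whether the clusters differ in this was not tested. At CCl4 1 week, leaving out replicate A or B took the share of the 200 rows to 7.9% or 6.6%. At WD 12 weeks it was 11.3% without replicate C, and at IVT day 0 it was 7.7% without replicate B and 9.2% without replicate C. At IVT day 1 it was 6.8% without replicate A. When rows were chosen anew without replicate C of WD 16 weeks or replicate D of WD 24 weeks, the shares were 26.7% and 33.3% in chow, 37.9% and 42.2% in vehicle and 48.7% and 45.5% at CCl4 1 week, and without the former they were 22.7% at IVT day 0 and 21.2% at IVT day 4. The median SD of the chosen rows with that level was 0.142 in chow and 0.544 at WD 12 weeks, against 0.161 and 0.307 over all rows. In culture it was between 0.0479 at day 8 and 0.0763 at day 1, close to the 0.0534 and 0.0688 of all rows. The cultures may be technical replicates, so these SDs may hold only the spread between wells and not that between mice. In IVT the mean pairwise correlation of deviations over all 15 libraries was 0.107 within the larger cluster, 0.012 within the smaller and -0.040 between them.

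**Figure D5:**
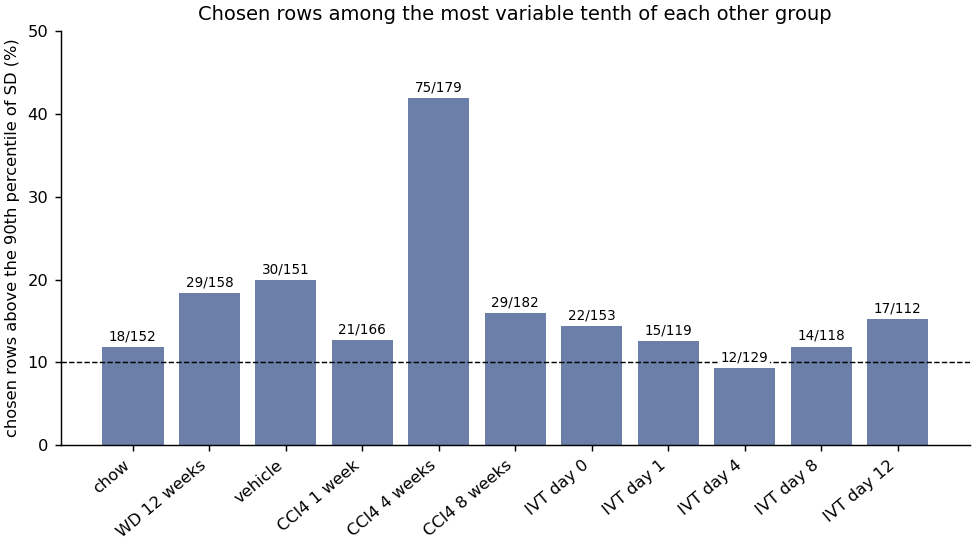
Percent of the chosen rows (y axis) whose SD was above the 90th percentile of all rows with a mean x of 4 or more in the same group (x axis), with the counts over the bars and a dashed line at the 10% that holds for all rows. CCl4 4 weeks stands highest at 41.9%, and chow and the culture days 1, 4 and 8 are between 9.3% and 12.6%.

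Beyond their spread, the larger cluster had a median mean x of 7.69 in chow, 7.44 in vehicle and 7.33 at IVT day 0, against 5.83, 5.87 and 5.57 over the 9578 rows the choice was made from. The limit on level at 16 and 24 weeks bears on this, since rows that fell under the diet had to start above it. The smaller cluster had medians of 0.43, 0.37 and 0.24. Its highest row was at 4.99 in chow. Along the table the rows were spread without a block: cut into 10 stretches of equal length, the table held 27, 16, 20, 21, 22, 17, 18, 24, 18 and 17 of the 200 rows in order, and 2 pairs of rows were direct neighbours.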

How the data were processed

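The authors deposited raw exon read counts per gene in 3 tables, unadjusted. Per the file headers and the submitters' processing notes, reads were aligned to mm10 with STAR and counted with HOMER, keeping 1 transcript per gene and reads of either strand, up to 3 at a position, which compresses the highest counts. The headers of all tables name the same source libraries, so each column was given the sample whose label equals its title.

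From these counts, log2(CPM + 1) gave levels and SDs, and differences were tested with edgeR 4.0.16 in R 4.3.3: TMM factors, filterByExpr, all groups of an experiment in a fit, the quasi-likelihood test, and adjustment by Benjamini-Hochberg over all rows tested. SEs are the log2FC divided by the root of F. Clusters came from average linkage on 1 minus Pearson's r at a height of 0.5. The rows and lists were chosen with earlier results of these data known. The average log2CPM was first taken as the mean of the group means, and edgeR's own average over the compared libraries was adopted after these calls had been seen. Rows given in full were those with the highest SDs, those closest to each cluster, and the 3 called rows with the largest change in each direction at 12 weeks of diet, 8 weeks of CCl4 and day 12 whose groups did not overlap, with rows 12 and 200 beside them. At 12 weeks of diet no called row fell. Alternatives covered normalization, filters, thresholds, DESeq2 1.42.0, the replicate letter as a block, thinning and leaving out each library. The tests were also run on simulated data, and the results of that are not given here. Gene names, markers, sequences and the comparisons between other time points were not analysed here.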

Additional observations from a re-analysis of the deposited data

Results flagged for a closer look

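Of 171 values compared with the other libraries of a 4-library group, 11 stood far from the rest by Dixon's test, where chance gives about 1 in 20. Replicate A of CCl4 4 weeks did so in 5 values: the mean x of the smaller cluster (5.338, others 4.384 to 4.523), the percent of counts in the larger cluster (1.888, others 3.089 to 3.201) and in the smaller cluster (0.267, others 0.1409 to 0.1546), x of row 28 (5.504, others 6.927 to 7.166) and x of row 91 (5.92, others 4.57 to 4.751). These values are not independent, since they come from 1 library and from rows that moved together. Replicate B of WD 12 weeks stood apart in its total of 2425443 counts. In row 28, replicate C of chow was at 7.355 (others 7.611 to 7.64) and replicate D of vehicle at 6.721 (others 7.458 to 7.605). In rows with counts in 1 library of a group only, that library stood apart: row 81 in vehicle replicate A (1.064), and row 163 in chow replicate A (0.245) and vehicle replicate A (0.5221).

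The effect of 12 weeks of diet differed from that of 8 weeks of CCl4 by edgeR's test of the difference in 24 of the 200 rows, where 11.1% of all 14120 rows had a positive and 7.49% a negative difference. The fit took its spread partly from the 16- and 24-week libraries that chose the rows, and with only the 4 groups compared 88 rows were called. Among the rows given in full, the log2 difference was 3.89 in row 2, 3.93 in row 10, 3.88 in row 45, -2.50 in row 54, 6.07 in row 120, -3.74 in row 160, 2.26 in row 164 and -3.85 in row 176. What sets these rows apart was not tested.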

How the results depend on the processing

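Calls at 12 weeks of diet depended most on the settings. Some of the counts below come without the share of all rows called under the same setting. Against 22 rows, 44 were called by FDR alone, 11 of the rows chosen on TMM-scaled values, 5 with the log2CPM limit on the mean of the group means (the form first used, replaced by edgeR's average after its calls had been seen) and 111 with only the groups compared. The difference between diet and CCl4 effects was called in 88 rows with only the groups compared and in 43 by DESeq2, against 24. At 1 week of CCl4, 49 of 76 calls were at least 2-fold, and leaving out each library gave 46 to 70. Of the set itself, 130 rows were chosen again at a mean x of 5 or more, 75 to 170 without 1 library. Shares above the 90th percentile of SD were 6.2% in chow and 7.8% at IVT day 8 at a mean x of 5 or more, and 19.9% at CCl4 1 week within bins of level. Leaving out each library gave 8.6% to 33.3% in chow, 11.3% to 23.1% at WD 12 weeks, 13.9% to 42.2% in vehicle, 6.6% to 48.7% at CCl4 1 week, 19% to 48.6% at CCl4 4 weeks, 7.7% to 22.7% at IVT day 0, 6.8% to 17.3% at day 1 and 6.8% to 21.2% at day 4. The cause was not tested. Of the rows given in full for a largest rise or fall, none changed sign under a setting in that comparison. The other rows given in full were not followed through the settings. With only the groups compared, however, the calls at 12 weeks of diet went from 22 higher and 0 lower to 24 higher and 87 lower, and with library totals more rows of the whole table were higher than lower at 8 weeks of CCl4, the reverse of the balance with TMM. Of the rows given in full for a largest rise or fall, 5 lost that call under the log2CPM limit on the mean of the group means (rows 11, 27, 81, 141 and 163). At 12 weeks of diet that limit left 5 rows called against 22, so further rows lost their call there.

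In no tested comparison did every same-letter pair of deviations correlate above 0.1, so letters were not taken as pairs: the range was -0.41 to 0.283 for chow and 12 weeks, 0.052 to 0.253 for vehicle and 1 week, -0.255 to 0.221 for 4 weeks, -0.268 to 0.3 for 8 weeks, -0.2 to 0.068 for day 0 and day 1 and -0.015 to 0.166 for day 12. At 16 and 24 weeks of diet, compared without a test, it was 0.395 to 0.796. With the replicate block, 23 rows were called at 12 weeks of diet, 65, 158 and 165 at 1, 4 and 8 weeks of CCl4, 147 and 155 at days 1 and 12, 28 for the difference, and 114 with 12 weeks and chow alone in the fit. That fit called 98 rows with library totals, 106 with DESeq2 size factors and 80 to 119 without 1 library, settings added after the data were seen. The shares of all rows called with the block or under these settings are not given, so these counts are not set against the whole table. A count of 3 limits what can be read of rows near 0 in the controls.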
